A study of Mus musculus with 6 samples.

Results

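The mitosis and G2/M genes followed here are 36 genes whose products carry a cell from the end of DNA replication through chromosome segregation to cytokinesis. They were chosen by gene symbol, and all 36 were found among the 55536 genes of the count table and among the 15374 genes with enough counts to be tested. Their transcripts were counted by RNA-seq in orthotopic tumors of HCA-1 cells, a murine hepatocellular carcinoma (HCC) line injected under the capsule of the liver of male C3H/HeNCrNarl mice that were 6 to 8 weeks old. The 3 control tumors, numbered 5, 6 and 7, came from untreated mice. The 3 GOx-DOX-LGP tumors, numbered 1, 2 and 5, came from mice given intravenous nanogels loaded with glucose oxidase (GOx), an enzyme that consumes glucose and releases hydrogen peroxide, and doxorubicin (DOX), a DNA-damaging drug that poisons topoisomerase II. The labels give doses on days 18, 19 and 20 and place the transcriptome analysis on day 17 after 3 h of circulation, which cannot both hold. For RT-qPCR of tumors under the same dosing, the study's methods place the harvest on the day after the last dose, and they do not state this for RNA-seq. A single cell line was implanted, and every tumor grew inside a liver with an intact immune system, so each library can hold RNA of host liver and host immune cells. The labels number the libraries but do not say in words that each is a separate mouse, and p-values measure the spread between these samples only.

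Cell division is driven by cyclin A2 and B-type cyclins bound to Cdk1, which is held inactive by Wee1 and released by Cdc25 phosphatases. Polo-like and Aurora kinases then build the spindle, kinetochores attach chromosomes to it, the spindle checkpoint delays anaphase until all are attached, and the anaphase-promoting complex with Cdc20 ends mitosis by marking cyclin B and securin for destruction. Most of these genes are transcribed together in G2 phase through promoters that hold NF-Y boxes (CCAAT) and a cell cycle genes homology region (CHR, TTTGAA), bound by NF-Y and by the MuvB complex with B-Myb and FoxM1, and in resting cells the DREAM complex represses them through the CHR. Adult hepatocytes seldom divide, so these transcripts are scarce in quiescent liver and plentiful in proliferating tumor cells.

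The shared promoter elements are visible in the sequences of 6 members, chosen because Ccnb2, Cdk1 and Ube2c had the 3 largest differences between groups, Hmmr had the smallest, Cdc20 holds both elements beside the start site, and Ccnb1 holds only 1 of the elements. Each runs 5′ to 3′ along the gene's own strand over 150 bases, from 135 before to 15 after the RefSeq start site on GRCm38.p6, with capitals for CCAAT or its reverse complement ATTGG and for TTTGAA or its reverse complement TTCAAA. The windows are chr9:70421540-70421689, minus strand, for Ccnb2, chr10:69352898-69353047, minus strand, for Cdk1, chr4:118437329-118437478, minus strand, for Cdc20, chr2:164769794-164769943, plus strand, for Ube2c, chr11:40733423-40733572, minus strand, for Hmmr, and chr13:100786472-100786621, minus strand, for Ccnb1.
Ccnb2: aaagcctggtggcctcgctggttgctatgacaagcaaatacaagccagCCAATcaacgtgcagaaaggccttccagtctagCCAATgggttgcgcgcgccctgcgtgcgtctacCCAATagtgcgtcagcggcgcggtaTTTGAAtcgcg
Cdk1: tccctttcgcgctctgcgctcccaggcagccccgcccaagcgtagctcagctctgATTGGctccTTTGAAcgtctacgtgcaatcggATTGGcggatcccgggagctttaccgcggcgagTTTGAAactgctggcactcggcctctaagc
Cdc20: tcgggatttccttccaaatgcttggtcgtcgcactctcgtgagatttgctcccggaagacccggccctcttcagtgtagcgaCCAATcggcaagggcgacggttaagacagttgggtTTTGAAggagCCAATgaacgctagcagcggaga
Ube2c: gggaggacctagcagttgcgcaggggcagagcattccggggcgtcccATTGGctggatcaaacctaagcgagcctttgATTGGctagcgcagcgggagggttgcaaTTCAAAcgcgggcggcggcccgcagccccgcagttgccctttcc
Hmmr: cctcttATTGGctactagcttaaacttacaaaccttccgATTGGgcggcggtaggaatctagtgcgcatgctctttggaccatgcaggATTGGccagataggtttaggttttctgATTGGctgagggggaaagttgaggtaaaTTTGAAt
Ccnb1: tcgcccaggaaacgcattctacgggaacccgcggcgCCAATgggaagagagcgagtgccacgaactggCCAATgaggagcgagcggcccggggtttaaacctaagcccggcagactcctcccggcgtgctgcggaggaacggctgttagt

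RefSeq promoters, from 250 bases before to 50 after the start, were matched for 29 of the 36 members, as 30 promoters. CCAAT was found on either strand in 76.7% of them, against 37.4% of all 32851 promoters and 37.5% of the promoters of genes tested here. TTTGAA was found on either strand in 76.7%, against 17.9% of all promoters and 12.8% of those of genes tested. Both motifs (neither contains the other) stood together in 66.7% of the members' promoters, in 6.95% of all promoters and in 5.05% of those of genes tested. At least 2 copies of CCAAT were held by 53.3% of the members' promoters and by 11.7% of all promoters.

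The position of the motifs was shared as well. A TTTGAA match lay within 40 bases of the start in 66.7% of the members' promoters and in 4.16% of all promoters, with a median position of 5 bases after the start over 27 matches. Between neighbouring CCAAT matches of a promoter the median spacing was 33 bases among the members, and 66.7% of 30 pairs lay 23 to 43 bases apart, against 30.2% of 5418 pairs in all promoters. Of the 52 promoters of the S phase and replication list, TTTGAA was found in 19.2% and CCAAT in 53.8%. Of the 79 promoters of other mitotic machinery, TTTGAA was found in 55.7% and CCAAT in 69.6%. CCAAT was also found in 57.9% of promoters of cell cycle brakes and in 50% of those of hepatocyte markers. Its share was thus above that of all promoters in each of these lists, and not in the members alone. Matches of letters are a description of these windows and not evidence that a factor binds there.

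**Figure D1:**
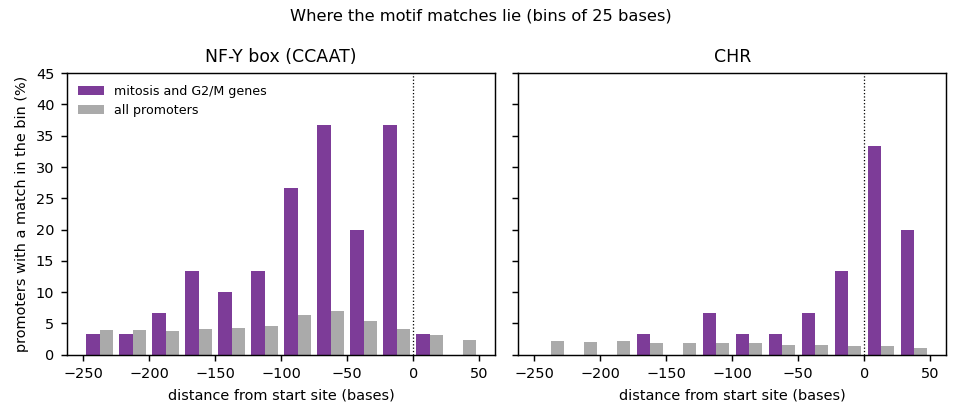
Share of promoters (%, vertical axis) with a match of CCAAT (left) or TTTGAA (right) in each bin of 25 bases, by distance from the RefSeq start site (horizontal axis), for the 30 promoters of mitosis and G2/M genes (purple) and all 32851 promoters (grey). TTTGAA matches of the members gather just after the start, with 33.3% of promoters in the bin from 0 to 24 bases against 1.31% of all promoters.

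Before any group difference is read, the libraries themselves have to be described, because the controls were not alike. Totals lay between 15529940 and 18401178 counts, so total depth was similar. Levels are given as CPM, counts per 1e6 counts of the library after scaling by the trimmed mean of M-values (TMM). The TMM factors were 1.24, 0.759 and 0.569 in controls 5, 6 and 7 and 1.21 to 1.24 in the GOx-DOX-LGP tumors. After this scaling, 1 count stood at 0.0439 CPM in control 5 and at 0.108 CPM in control 7. Across all genes tested, the log2 CPM of control 5 had correlations of 0.966 to 0.975 with the GOx-DOX-LGP tumors but of 0.73 with control 6 and 0.659 with control 7, whereas controls 6 and 7 had a correlation of 0.969 with each other. The mean log2 CPM of 25 hepatocyte markers was 3.99 in control 5, 11.77 in control 6 and 12.45 in control 7, and 5.27 to 6.58 in the GOx-DOX-LGP tumors. Albumin (Alb), the main secreted protein of hepatocytes, was counted at 353, 73804 and 128244 CPM in controls 5, 6 and 7, compared with 1893, 733 and 1061 CPM under GOx-DOX-LGP in tumors 1, 2 and 5. No hepatocyte marker was at 0 in any library. Mitochondrial transcripts made up 2.21%, 7.02% and 8.98% of counts for controls 5, 6 and 7, compared with 2.63% to 3.23% in the treated tumors. The 7 genes of the tumor epithelium list had mean log2 CPM of 4.65, 4.84 and 4.36 in controls 5, 6 and 7 and 4.59 to 4.68 in the GOx-DOX-LGP tumors. This mean joins genes that ran opposite ways across the controls. Among them, the fetal liver proteins Afp and Gpc3 were low everywhere, at most 13.2 and 2.29 CPM. Afp was at 4.91, 10.3 and 13.2 CPM in controls 5, 6 and 7 and at 2.25 to 4.94 CPM in the treated tumors. The epithelial keratin Krt18 was at 627, 416 and 336 CPM in those controls and at 607 to 790 CPM in the treated tumors. Whether Krt18 RNA came from tumor cells or host liver was not tested.

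The 36 genes followed the same division. Summed over the members, control 5 held 2642 CPM, control 6 held 679 CPM and control 7 held 126 CPM, and GOx-DOX-LGP tumors 1, 2 and 5 held 2254, 1800 and 2190 CPM. The treated tumors therefore lay above controls 6 and 7 and below control 5. All 36 members had their highest control value in control 5 and their lowest in control 7, an order held by 34.5% of all genes tested. In all 36, controls 6 and 7 both lay below every treated tumor, which was so for 37.2% of all genes. In 26 of the 36, control 5 lay above every treated tumor, against 28.4% of all genes, in the other 10 the treated tumors lay on both sides of control 5, and in 0 did all 3 treated tumors exceed it. In bulk tissue, fewer cells of a type and less RNA per cell cannot be told apart.

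**Figure D2:**
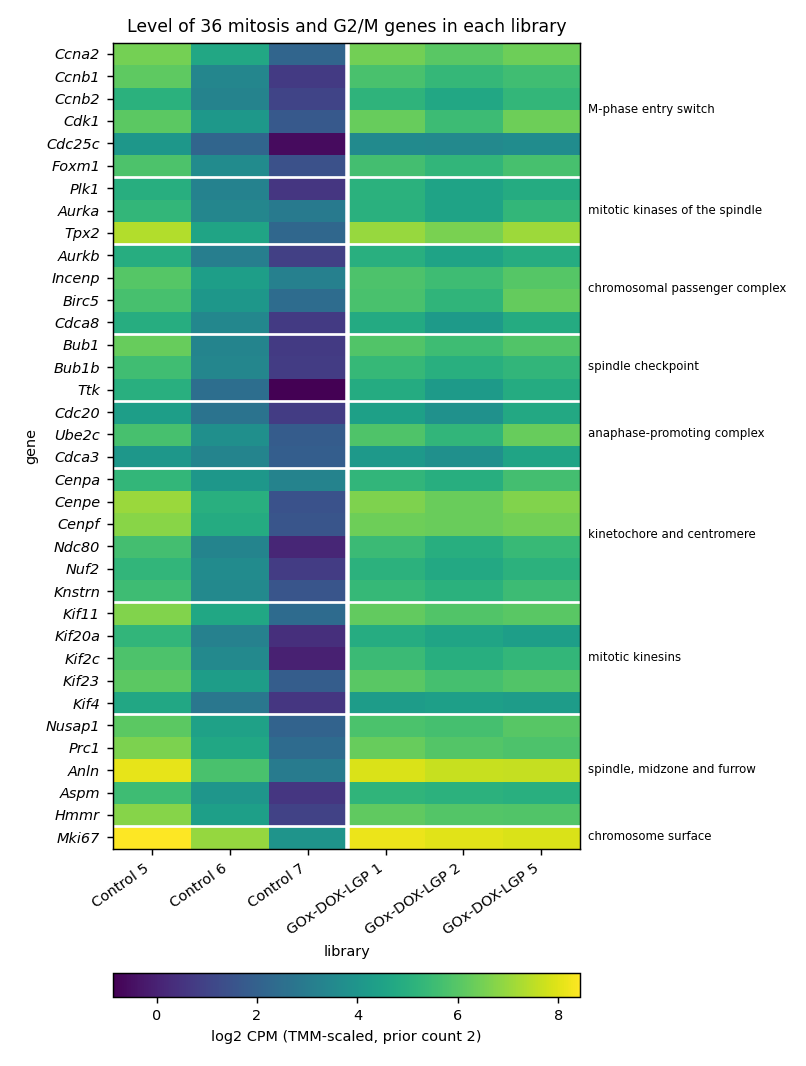
Level of each of the 36 genes (rows, grouped by role) in each of the 6 libraries (columns) as TMM-scaled log2 CPM with a prior count of 2, from dark (low) to yellow (high). Control 5 resembles the 3 GOx-DOX-LGP tumors, control 6 is darker and control 7 is darkest, with role means down to 0.21 for the spindle checkpoint genes.

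Over all 6 libraries, 0 members passed edgeR's quasi-likelihood test or DESeq2. By contrast, limma voom with quality weights called all 36 higher, where it called 29.2% of all genes higher and 30.9% lower. All 36 had a positive log2 fold change (GOx-DOX-LGP over control), from 0.57 to 1.31 with a median of 0.87, against a median of 0.02 over all genes tested, with standard errors of 0.53 to 1.18. In 20 of the 36 the difference was smaller than its standard error. By edgeR's quasi-likelihood test with Benjamini-Hochberg adjustment, 0 of the 36 passed an adjusted p of 0.05, with adjusted p from 0.413 to 0.781, and the share of all genes that passed was 0%. By the unadjusted p of that test, 0 members passed 0.05 as higher, where 2.87% of all genes did, and 0 as lower, where 14.6% did. The groups overlapped in all 36, whereas 8.87% of all genes lay wholly higher and 8.31% wholly lower in the treated tumors. DESeq2 called 10.5% of 16513 genes and 0 of the members.

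The size of the difference turned on control 5. Without that library, edgeR gave log2 fold changes of 1.46 to 3.30 with a median of 2.40, and 34 of the 36 passed as higher (adjusted p 0.00267 to 0.0667), where 22.2% of all 16249 genes tested passed as higher and 25.5% as lower. Aspm (adjusted p = 0.0655, edgeR quasi-likelihood test) and Mki67 (adjusted p = 0.0667, same test) were the 2 that did not pass. Limma voom with quality weights, a method that can lower the weight of libraries that stand apart, called all 36 higher over all 6 libraries (adjusted p 0.00189 to 0.0416), where it called 29.2% of all genes higher and 30.9% lower. Its median log2 fold change was 1.92, and the difference in the members' mean log2 CPM without weights was 1.80. The part of the weights in that result was not tested. Without control 7, the control lowest in all 36, the median was 0.36 and 0 members passed, and without control 6 it was 0.60, also with 0 past the threshold. With control 5 as the lone control, the median was -0.30 and 29 of the 36 had a negative difference, with adjusted p of at least 0.885 in edgeR. With the hepatocyte mean of each library as a covariate, 36 of 36 were positive with a median of 0.38 and adjusted p of at least 0.760 in edgeR, and 0% of all genes passed. The hepatocyte markers, 25 of 25 lower in the treated group with a median log2 fold change of -5.48, moved opposite to the members, and their part in the result was not tested.

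**Figure D3:**
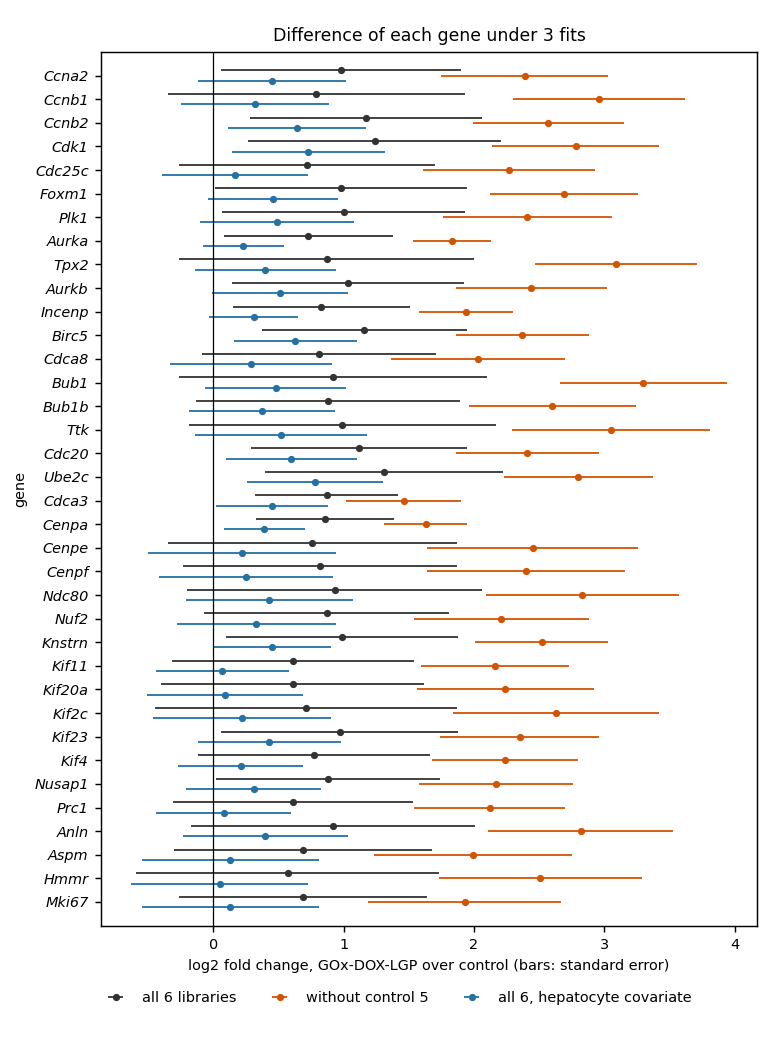
Log2 fold change of each gene (GOx-DOX-LGP over control, horizontal axis, bars: standard error) over all 6 libraries (black), without control 5 (orange) and with the hepatocyte covariate (blue). The medians were 0.87, 2.40 and 0.38, and the fit without control 5 lies farthest from 0 for every gene.

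The M-phase entry switch holds 6 members, with log2 fold changes of 0.72 to 1.24. Ccna2, cyclin A2, which acts from S phase into early mitosis (chr3:36564865-36572150, minus strand), stood at 88.8, 26.1 and 4.41 CPM in controls 5, 6 and 7, compared with 87.1, 66.5 and 83.1 CPM under GOx-DOX-LGP in tumors 1, 2 and 5. All treated values thus fell between controls 5 and 6, and the group difference was 0.98 ± 0.92 (log2 fold change ± SE, n = 3 per group, edgeR adjusted p = 0.558). Ccnb1, cyclin B1, the main partner of Cdk1 at mitotic entry (chr13:100778650-100786570, minus strand), was at 69.8, 10.6 and 1.51 CPM in the controls and at 54.1, 39.7 and 47.9 CPM in the treated tumors. Its fold between controls 5 and 7 was 46.3, its difference between groups was 0.79 ± 1.14 (SE), and 23.4% of its 50-base stretches also occur in the pseudogene Ccnb1-ps. Ccnb2, cyclin B2, the Golgi-associated B cyclin (chr9:70407692-70421547, minus strand), had 33.6, 9.58 and 1.94 CPM in the controls and 36.6, 26.5 and 39.5 CPM in the treated tumors. Here 2 of the 3 treated tumors exceeded control 5, with a difference of 1.17 ± 0.89 (SE).

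The catalytic partner of these cyclins, Cdk1 (chr10:69335146-69352938, minus strand), showed 67.4, 17.1 and 3.23 CPM in controls 5, 6 and 7, compared with 77.9, 46.1 and 83.9 CPM in tumors 1, 2 and 5. Its difference of 1.24 ± 0.97 (SE) was the second largest of the members, and its mean of 69.3 ± 20.3 CPM (SD, n = 3) in the treated tumors was close to control 5. Cdc25c, a phosphatase that removes the inhibitory phosphates of Cdk1, was scarce, with 16.4, 4.32 and 0.538 CPM in the controls and 11.9, 11.2 and 12.4 CPM in the treated tumors. Its treated tumors differed by 1.11-fold at most and all lay below control 5, while its 5 counts in control 7 set its lowest value. Foxm1, the forkhead factor that activates many of the other members (chr6:128362967-128376146, plus strand), read 56.8, 12.1 and 2.58 CPM in the controls and 50.7, 38.1 and 53.0 CPM in the treated tumors. All treated values again lay between controls 5 and 6, and its difference was 0.98 ± 0.97 (SE). Among these 6 genes, exon overlap on the opposite strand covers 12.5% of Ccna2 (Exosc9) and 12.7% of Cdc25c (Gm3550), and whether the counting used strand is not given in the sources used here.

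The 3 genes of the spindle kinases had differences of 0.73 to 1.00. Plk1, polo-like kinase 1, which matures centrosomes and activates Cdk1 (chr7:122159439-122169873, plus strand), had 31.5, 9.33 and 1.40 CPM in controls 5, 6 and 7, compared with 33.4, 23.1 and 28.9 CPM in tumors 1, 2 and 5. Aurka, the centrosomal Aurora A kinase (chr2:172356190-172370535, minus strand), was at 38.8, 10.3 and 7.64 CPM in the controls and at 32.6, 22.8 and 39.1 CPM in the treated tumors. Aurka was the member least like the rest across libraries, controls 6 and 7 differed by only 1.35-fold in it, and without control 5 it had the lowest adjusted p of the 36 (0.00267, edgeR, log2 fold change 1.83 ± 0.30 SE). Tpx2, which binds Aurora A to the spindle and activates it (chr2:152847964-152895321, plus strand), showed 167, 23.6 and 4.63 CPM in the controls and 129, 93.5 and 135 CPM in the treated tumors. All treated values of Tpx2 lay between controls 5 and 6, for a difference of 0.87 ± 1.13 (SE) with all libraries and 3.09 ± 0.62 without control 5.

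The chromosomal passenger complex corrects faulty attachments and directs cytokinesis, and its 4 subunits differed by 0.81 to 1.16. Its kinase Aurkb (chr11:69045647-69051664, plus strand) had 30.6, 8.65 and 1.72 CPM in controls 5, 6 and 7, compared with 31.7, 23.1 and 29.4 CPM in tumors 1, 2 and 5, so that tumor 1 stood just above control 5. Incenp, the scaffold of the complex (chr19:9872296-9899551, minus strand), read 64.1, 20.4 and 8.93 CPM in the controls and 57.5, 46.4 and 62.7 CPM in the treated tumors, all of them under control 5. Birc5, survivin, which places the complex at centromeres (chr11:117849251-117855743, plus strand), was at 52.6, 16.5 and 5.27 CPM in the controls and at 53.6, 37.5 and 75.5 CPM in the treated tumors. Survivin thus varied 2.01-fold among the treated tumors, more than its 1.06-fold ratio of treated mean to control 5, and its difference was 1.16 ± 0.79 (SE, edgeR adjusted p = 0.450). Cdca8, borealin, the remaining subunit, had a difference of 0.81 ± 0.90 (SE).

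The 3 spindle checkpoint genes had the lowest role mean of all in control 7, 0.21 log2 CPM, against 5.62 in control 5, 3.08 in control 6 and 4.91 to 5.39 in the treated tumors. Bub1, a kinase that recruits checkpoint proteins to kinetochores (chr2:127801122-127831865, minus strand), had 76.9, 9.84 and 1.51 CPM in controls 5, 6 and 7, compared with 60.9, 47.1 and 60.2 CPM in tumors 1, 2 and 5. Its log2 fold change was 0.92 ± 1.18 (SE) over all libraries and, without control 5, 3.30 ± 0.64, the largest of the members in that fit (edgeR adjusted p = 0.00542). Ttk, the Mps1 kinase that starts checkpoint signalling (chr9:83834689-83872389, plus strand), showed 32.0, 5.60 and 0.430 CPM in the controls and 29.2, 18.1 and 28.8 CPM in the treated tumors. The 74.3-fold distance of Ttk between controls 5 and 7 was the widest of the 36 and rests on 4 counts in control 7. Bub1b, the BubR1 subunit of the inhibitor of Cdc20, differed by 0.88 ± 1.01 (SE).

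The genes of protein destruction in mitosis included the member with the largest difference. Ube2c, the ubiquitin-conjugating enzyme of the anaphase-promoting complex (chr2:164769898-164778822, plus strand), had 53.1, 13.3 and 3.44 CPM in controls 5, 6 and 7, compared with 59.3, 37.8 and 76.9 CPM in tumors 1, 2 and 5. Tumors 1 and 5 exceeded control 5 and tumor 2 did not, the log2 fold change was 1.31 ± 0.91 (SE, edgeR adjusted p = 0.456), and 22.8% of its exon bases overlap Tnnc2 on the opposite strand. Cdc20, the activator that brings securin and cyclin B to the complex (chr4:118432901-118437352, minus strand), was at 20.4, 6.19 and 1.61 CPM in the controls and at 21.1, 14.3 and 26.6 CPM in the treated tumors. Its difference was 1.12 ± 0.83 (SE), and 10.4% of its 50-base stretches are shared with Gm7856. Cdca3, which helps to degrade Wee1 at mitotic entry, had a difference of 0.87 ± 0.55 (SE) and the smallest fold between controls 5 and 6, 1.69.

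The kinetochore and centromere genes, 6 in all, differed by 0.76 to 0.99. Cenpa, the histone H3 variant that marks centromeres (chr5:30666777-30674830, plus strand), had 39.3, 16.4 and 9.69 CPM in controls 5, 6 and 7, compared with 37.8, 30.8 and 50.4 CPM in tumors 1, 2 and 5. Its controls were the closest together of all members, with 4.05-fold between controls 5 and 7, and its adjusted p, 0.413 in edgeR for 0.86 ± 0.53 (SE), was the lowest of the 36. Cenpe, the kinesin that carries chromosomes to the metaphase plate (chr3:135212537-135273611, plus strand), read 130, 31.6 and 2.69 CPM in the controls and 98.8, 79.8 and 101 CPM in the treated tumors. Ndc80, the microtubule-binding core of the kinetochore (chr17:71496100-71526857, minus strand), was at 50.3, 10.0 and 0.969 CPM in the controls and at 44.0, 31.0 and 42.8 CPM in the treated tumors. In both genes every treated tumor lay between controls 5 and 6. Knstrn, a kinetochore protein that helps to separate sister chromatids (chr2:118814003-118853957, plus strand), showed 46.8, 11.3 and 2.91 CPM in the controls and 41.6, 33.9 and 46.0 CPM in the treated tumors, with tumor 5 nearly level with control 5. Nuf2, the partner of Ndc80, and Cenpf, a large protein of the outer kinetochore, had differences of 0.87 ± 0.94 and 0.82 ± 1.05 (SE), and the 3 treated tumors differed by only 1.10-fold in Cenpf.

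The 5 mitotic kinesins, motors that slide or shorten spindle microtubules, had differences of 0.61 to 0.97. Kif11, Eg5, which pushes the spindle poles apart (chr19:37376403-37421859, plus strand), had 101, 25.1 and 5.17 CPM in controls 5, 6 and 7, compared with 73.8, 60.7 and 66.4 CPM in tumors 1, 2 and 5. Kif2c, MCAK, which depolymerizes microtubules at centromeres (chr4:117159639-117182639, minus strand), was at 57.1, 11.4 and 0.861 CPM in the controls and at 44.0, 31.2 and 38.8 CPM in the treated tumors. Kif20a, which brings the passenger complex to the central spindle, showed 37.6, 9.16 and 1.18 CPM in the controls and 29.7, 23.6 and 20.1 CPM in the treated tumors. In all 3 genes the treated tumors stood well under control 5, with a mean of 0.663, 0.665 and 0.651 times that library, and differences of 0.61 ± 0.93, 0.71 ± 1.16 and 0.61 ± 1.01 (SE). Kif23, the motor of the centralspindlin complex, and Kif4, a chromosome-bound motor, differed by 0.97 ± 0.91 and 0.77 ± 0.89 (SE). The exons of Kif20a overlap Cdc23 on the opposite strand over 29.3% of their bases and those of Kif4 overlap Pdzd11 over 15.1%.

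The 5 genes of the spindle, midzone and cleavage furrow included the member with the smallest difference. Hmmr, which organizes microtubules at spindle poles (chr11:40701395-40733422, minus strand), had 108, 20.9 and 1.83 CPM in controls 5, 6 and 7, compared with 71.5, 62.3 and 60.2 CPM in tumors 1, 2 and 5. The treated tumors of Hmmr were close to one another and at 0.601 times control 5 on average, and the difference of 0.57 ± 1.16 (SE, edgeR adjusted p = 0.781) was smaller than its error. Prc1, which bundles the antiparallel microtubules of the midzone (chr7:80294450-80316259, plus strand), was at 97.9, 25.1 and 5.17 CPM in the controls and at 76.4, 61.8 and 57.3 CPM in the treated tumors. Anln, anillin, which links actin and septins in the furrow (chr9:22332012-22389188, minus strand), read 276, 53.8 and 7.86 CPM in the controls and 241, 204 and 196 CPM in the treated tumors. Both fell wholly between controls 5 and 6 in the treated tumors, with differences of 0.61 ± 0.92 and 0.92 ± 1.09 (SE). Nusap1, a microtubule bundler, and Aspm, a spindle pole protein, differed by 0.88 ± 0.86 and 0.69 ± 0.99 (SE).

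Mki67, which coats mitotic chromosomes and is the Ki-67 antigen of proliferation staining (chr7:135689784-135716361, minus strand), had 347, 124 and 15.4 CPM in controls 5, 6 and 7, compared with 284, 260 and 238 CPM in tumors 1, 2 and 5. Every treated tumor lay between controls 5 and 6, the mean was 162 ± 169 CPM in the controls and 261 ± 22.9 CPM in the treated tumors (SD, n = 3), and the log2 fold change was 0.69 ± 0.95 (SE, edgeR adjusted p = 0.677). Per kilobase of exon, Mki67 and Tpx2 had the highest means over the 3 treated tumors, 25.9 and 25.5 CPM per kilobase, with overlapping ranges of 23.7 to 28.2 and 20.0 to 28.9. The order differed by tumor, with Mki67 first in tumors 1 and 2 and Ube2c first in tumor 5, at 29.6 CPM per kilobase. Cdc25c was the least abundant by the same scale, at 2.28 to 2.53 CPM per kilobase.

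Relative to control 5, the control with the fewest hepatocyte transcripts, the members did not all stand alike. The mean of the treated tumors ranged from 0.601 times control 5 in Hmmr to 1.11 times in Cdca3, with a median of 0.802. It lay above control 5 in 7 genes, which were Ccnb2, Cdk1, Birc5, Cdc20, Ube2c, Cdca3 and Cenpa, at 1.01 to 1.11 times that control. It lay below control 5 in all other members. Among these were all 5 kinesins, all 5 spindle, midzone and furrow genes, all 3 spindle checkpoint genes, all 3 spindle kinase genes and Mki67. Also below were Ccna2, Ccnb1, Cdc25c and Foxm1 of the M-phase entry switch and Aurkb, Incenp and Cdca8 of the passenger complex. So were Cenpe, Cenpf, Ndc80, Nuf2 and Knstrn of the kinetochore and centromere genes. With 1 such control this order has no replicate check. Tumor 2 was the lowest of the treated tumors in 29 of the 36 members, against 39.1% of all genes tested, and it had the highest macrophage marker mean, 8.31 log2 CPM against 7.02 and 7.56 in tumors 1 and 5. The part of macrophage RNA in that order was not tested.

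**Figure D4:**
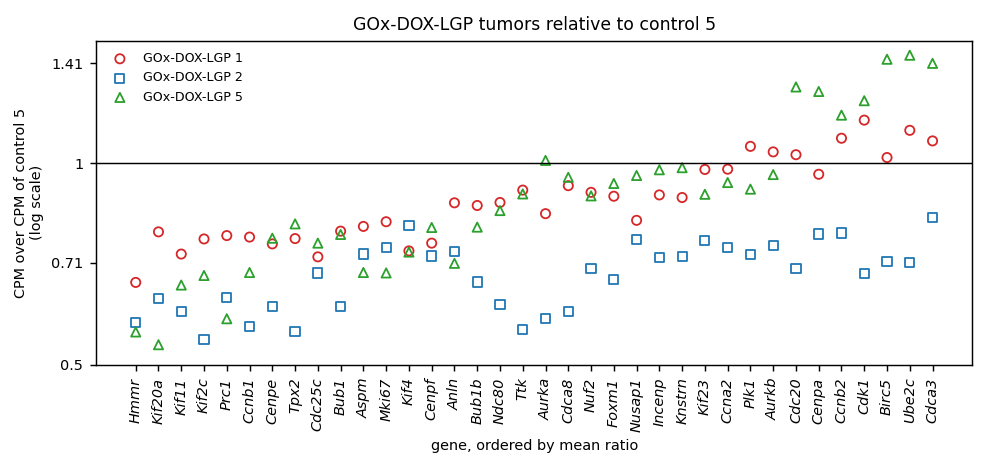
CPM of each GOx-DOX-LGP tumor divided by the CPM of control 5 (vertical axis, log scale, line at 1) for the 36 genes in order of their mean ratio (horizontal axis). The mean ratio runs from 0.601 in Hmmr to 1.11 in Cdca3, and tumor 2 (squares) is the lowest of the 3 in 29 genes.

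The spread of the members among controls was the widest feature of their data. The SD of log2 CPM over the 3 controls had a median of 2.19 over the members and of 0.56 over all genes tested, and the same SD over the treated tumors had medians of 0.22 and 0.24. The mean log2 CPM over the members was 5.82, 3.88 and 1.44 for controls 5, 6 and 7, compared with 5.63, 5.26 and 5.63 in tumors 1, 2 and 5, which gives 3.71 ± 2.20 for the controls and 5.51 ± 0.21 for the treated tumors (SD, n = 3), a difference of 1.80. The fitted log2 fold changes, with a median of 0.87, compare group means on the count scale, in which a high library such as control 5 weighs more than in a mean of logs. The pattern across the 6 libraries was nearly common to the members, with Pearson's r between a member and the mean of the members of at least 0.9309 (Aurka) and of at least 0.99 in 26 of 36, and 258 genes or 1.68% of all tested reached 0.99. The genes outside the members most like their mean were Top2a (r = 0.9991), Hells (0.9988) and Sgo2a (0.9987), over 6 libraries that share the same gap between control 5 and the other controls.

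Most genes of neighbouring steps of the cell cycle showed the same order of controls, falling from control 5 to control 6 to control 7. This held in 76 of 84 other mitotic genes, 47 of 55 S phase and replication genes and 15 of 21 tested cell cycle brakes. The share over all genes tested was 34.5%. Of 84 other genes of the mitotic machinery, 80 had a positive and 4 a negative log2 fold change, with a median of 0.74, and 0 passed the adjusted threshold. Among all 15374 genes tested, 7862 had a positive log2 fold change. Top2a, the topoisomerase that DOX poisons, was at 317, 80.3 and 10.4 CPM in controls 5, 6 and 7, compared with 278, 214 and 301 CPM in tumors 1, 2 and 5. Pimreg was at 2.90, 1.44 and 0.323 CPM in the controls and at 3.95, 5.88 and 3.49 CPM in the treated tumors, and Pttg1, securin, had a log2 fold change of 1.22 ± 0.72 (SE). In the opposite direction, Hjurp, the chaperone that deposits Cenpa, was at 128, 149 and 202 CPM in the controls and at 101, 84.2 and 102 CPM in the treated tumors (log2 fold change -0.74 ± 0.26 SE, edgeR adjusted p = 0.247), and Spc24 had -0.47 ± 0.32 (SE). The levels of Hjurp therefore ran opposite to those of Cenpa across the controls. Wee1, the kinase that restrains Cdk1, differed by 0.13 ± 0.22 (SE) and lay between 25.8 and 40.4 CPM in all libraries.

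Of 55 S phase and replication genes, 53 were positive and 2 negative, with a median of 0.73 and 0 past the adjusted threshold. Among all 15374 genes tested, 7862 were positive. Pcna, the sliding clamp, had 147, 56.4 and 41.2 CPM in controls 5, 6 and 7, compared with 177, 121 and 172 CPM in tumors 1, 2 and 5, and Mcm2, a helicase subunit, had a log2 fold change of 0.77 ± 0.69 (SE). Asf1b and Orc1 had the largest positive differences, 1.22 ± 0.86 and 1.18 ± 0.92 (SE). Mcm10, a replication initiation factor, was negative, at 31.2, 76.7 and 162 CPM in the controls and 27.0, 17.5 and 24.5 CPM in the treated tumors. The mean log2 CPM of the members minus that of the S phase genes, which does not depend on how libraries are scaled, was 1.04, 0.17 and -1.32 for controls 5, 6 and 7, compared with 0.87, 0.85 and 0.80 in tumors 1, 2 and 5. The members thus fell further than the S phase genes from control 5 to control 7, while the treated tumors lay just under control 5 in that contrast.

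Of 21 tested cell cycle brakes, 18 were positive and 3 negative, with a median of 0.47, where 7862 of all 15374 genes tested were positive. Cdkn1a, the p21 inhibitor induced by p53, was at 128, 23.1 and 9.25 CPM in controls 5, 6 and 7, compared with 114, 102 and 112 CPM in tumors 1, 2 and 5, an order of libraries like that of the members, with a difference of 1.03 ± 0.90 (SE). Cdkn2d and Cdkn2b, inhibitors of Cdk4 and Cdk6, both had 1.10 (SE 0.47 and 0.38) with groups that did not overlap. Of the 21 brakes 3 lay wholly higher in the treated tumors, against 8.87% of all genes. Cdkn2b was scarce, at 0.430 to 0.790 CPM in the controls and 1.20 to 1.57 CPM in the treated tumors. Cdkn1c, p57, was at 0.263, 4.49 and 6.24 CPM in the controls and at 0.198, 0.784 and 0.416 CPM in the treated tumors, and Rbl2 had -0.12 ± 0.30 (SE). None of these 5 genes passed the adjusted threshold (edgeR adjusted p from 0.247 to 0.820).

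Of the markers of host cells, 0 passed the adjusted threshold of edgeR's quasi-likelihood test over all 6 libraries. All 12 T cell markers were positive with a median log2 fold change of 1.40, and 9 of them lay wholly higher in the treated tumors, against 8.87% of all genes. Their summed level was 45.2 to 162 CPM in the controls and 215 to 332 CPM in the treated tumors. Cd3d, a subunit of the T cell receptor complex, had 3.42, 2.46 and 1.72 CPM in controls 5, 6 and 7, compared with 7.81, 7.20 and 10.4 CPM in tumors 1, 2 and 5. The 5 fibroblast markers summed to 1331 to 5671 CPM in the controls and 2169 to 6756 CPM in the treated tumors, and the 7 macrophage markers to 674 to 1506 and 1433 to 3789 CPM, so that both lists overlapped between groups. Of the 5 endothelial markers 4 were negative, and they summed to 115 to 221 CPM in the controls and 83.8 to 101 CPM in the treated tumors. None of the T cell, macrophage, fibroblast or endothelial markers was at 0 in a library, and their part in the members' values was not tested.

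**Figure D5:**
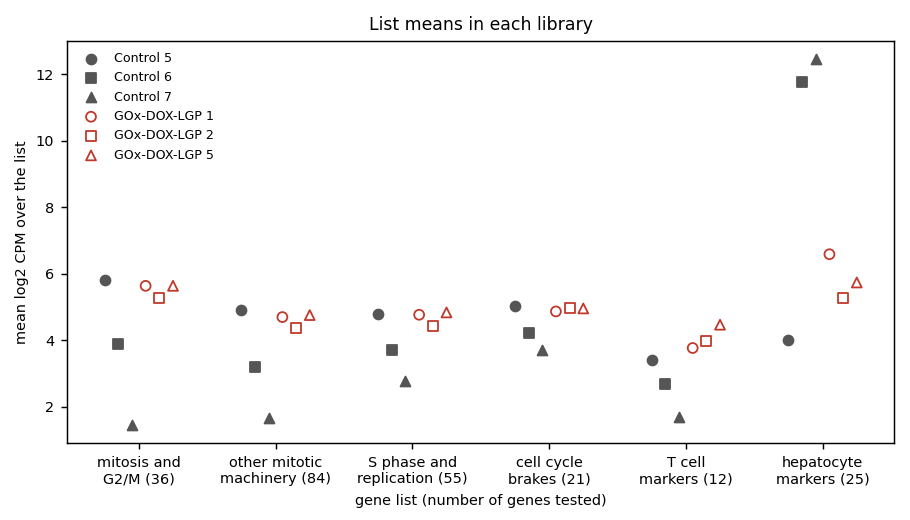
Mean log2 CPM over each gene list (vertical axis) in each library, for controls (filled grey) and GOx-DOX-LGP tumors (open red), with the number of genes tested per list. For the 36 mitosis and G2/M genes the controls spread from 1.44 to 5.82 and the treated tumors from 5.26 to 5.63, while hepatocyte markers run the other way across the controls, from 3.99 to 12.45.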

How the data were processed

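RNA of 6 HCA-1 tumors was analysed, grouped by GEO's labels into 3 controls and 3 GOx-DOX-LGP tumors. The raw counts per gene were deposited by the authors unnormalized and unpooled. The normalized signal values the authors deposited equal these counts divided by 1 size factor per library (0.5321 to 1.322) and served only for that check. The methods name TopHat 2.0.12 and HTSeq 0.6.1, with edgeR 3.28.1 and DESeq2 1.26.0, whereas the submitters' processing notes name Trimmomatic 0.38, HISAT2 2.1.0 and featureCounts 2.0.0. The genome build and the use of strand are not given in the sources used here.

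Counts were analysed in R 4.3.3 with edgeR 4.0.16 (filterByExpr, TMM, quasi-likelihood test without covariates, Benjamini-Hochberg adjustment over all genes tested, threshold 0.05), and with DESeq2 1.42.0 and limma 3.58.1 as alternatives. Standard errors (SE) of edgeR differences were derived from the test. Each is the absolute log2 fold change divided by the square root of the quasi-likelihood F statistic. Log2 CPM used a prior count of 2. The steps were tested on simulated data in which all libraries of a group were drawn around a common mean per gene. Such data do not show how the tests behave with controls as unlike as these. Totals were 15529940 to 18401178 counts. After TMM scaling, 3 counts stood at 0.132 CPM in control 5 and at 0.323 CPM in control 7. An exact permutation test of 3 against 3 libraries cannot go below 0.1 and was not used. Gene positions, exon lengths and shared 50-base stretches come from GENCODE M21 (GRCm38), which held 55450 of 55536 gene IDs, and promoters from RefSeq. Figures were drawn with matplotlib 3.10.9.

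Members and lists were chosen with earlier results of these data known. Differences are given for all 36 members and library values for a named subset: genes picked within each role, the 3 largest and 3 smallest differences, and of other lists the 2 highest and 2 lowest differences with Alb, Cdkn1a, Wee1, Top2a, Pcna and Mcm2. A gene that this rule selects is not reported here.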

Additional observations from a re-analysis of the deposited data

How the results depend on the processing

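The median log2 fold change of the 36 members stayed positive with all 6 libraries, from 0.87 to 1.03 with other scalings, filters and DESeq2, 0.38 with the hepatocyte covariate and 1.92 with limma voom and quality weights. Scaling by library totals put the median of all genes at 0.51 and that of the members at 1.03, and the upper quartile put them at 0.19 and 0.97. The count of members past the threshold was 36 with limma voom and quality weights in place of 0. That fit called 29.2% of all genes higher and 30.9% lower. Leaving out 1 library gave counts of 0 to 34 and medians of 0.36 to 2.40, with 34 and 2.40 both without control 5 and 0.36 without control 7. The fit without control 5 called 22.2% of all genes tested higher and 25.5% lower. With controls 6 and 7 left out together, an alternative chosen after seeing the data in which control 5 is assumed to vary like the treated tumors, the median turned to -0.30, the difference in mean log2 CPM to -0.30 and that of members minus S phase genes to -0.20. The causes were not tested beyond the libraries left out. No paired analysis was possible because the groups share only 1 replicate number. Library totals were similar, and precision was lowest in control 7, where 4 members had under 10 counts.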

Other observations

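Marker genes of other cell types gave the following log2 fold changes (GOx-DOX-LGP over control, edgeR, all 6 libraries), of which 0 passed the adjusted threshold of 0.05 (adjusted p from 0.247 to 0.907). The highest and lowest of the hepatocyte list were Arg1 (-3.54) and Trf (-4.23) against Tat (-7.19) and Hpd (-7.00), with Alb at -5.78. Tumor epithelium gave Krt18 0.58, Krt19 0.50, Gpc3 -1.06 and Afp -1.26, and T cells gave Cd3d 1.73, Trbc2 1.59, Cd8a 1.20 and Cd4 0.49. Macrophages gave Lyz2 1.43, Cd68 1.21, Adgre1 0.71 and Csf1r 0.14, and neutrophils S100a8 1.71, S100a9 1.62 and Csf3r 0.41. The B cell receptor subunits Cd79b and Cd79a were at -0.11 and -1.06. Endothelial genes gave Emcn 0.24, Pecam1 -0.28, Vwf -2.07 and Kdr -2.31, and fibroblast genes Col1a1 0.79, Col1a2 0.79, Pdgfrb -0.13 and Dcn -1.15. Of the erythroid precursor genes, Tfrc was at -0.37, Epor at -1.06 and Alas2, which makes heme, at -6.02. Without control 5, Alas2 was lower (adjusted p = 5.12e-05, edgeR) at -6.57, in a fit that called 25.5% of all genes tested lower. Tfrc (adjusted p = 0.158, edgeR) and Epor (adjusted p = 0.193, edgeR) did not pass in that fit. Alas2 was at 1.05, 95.1 and 185 CPM in controls 5, 6 and 7 and at 1.93, 1.08 and 1.30 CPM in the treated tumors. For Alas2, control 5 thus again stood with the treated tumors.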
